A study of Mus musculus with 71 samples.

Results

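The genes described here are 10 of the 37620 genes in a count table of mouse embryos that lack different microRNAs of the miR-17-92 cluster. They are Ccng1, Eda2r, Mdm2, Bax, Trp53inp1, Phlda3, Sesn2, Zmat3, Aen and Perp, which are all known targets of the transcription factor p53. The 10 genes were put together with results of these data already known and chosen by their low count values in embryos without miR-92a-1 and without miR-18a, each set against wild type. Both of those comparisons are therefore given as measured values with no test. Each of the 10 genes was found in the table by its Ensembl identifier, and each had enough counts to be tested in all tissues, with 46 to 5409 counts in a library.

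p53, the product of Trp53, is kept low in unstressed cells because Mdm2 marks it for degradation. DNA damage and other stresses stabilise it, and it then binds response elements near its target genes, which act in cell cycle arrest, DNA repair, cell death and feedback on p53 itself. In the early mouse embryo, loss of Mdm2 or Mdm4 is lethal through p53, so that a low level of p53 activity is held in check during normal development. MicroRNAs pair through a seed, bases 2 to 8, with sites in the 3′ untranslated regions (UTRs) of messenger RNAs and lower the amount of those messages. The miR-17-92 cluster is processed from 1 primary transcript into members of the miR-17, miR-18, miR-19 and miR-92 seed families and is known as a growth-promoting cluster.

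RNA came from the tail bud, the heart and what was left of each embryo (the embryo remainder, written rest of embryo in the plots) of C57BL/6 mice at embryonic day 9.5 with 20 to 22 somites. The mutant genotypes were Δ92 (miR-92a-1 deleted), Δ18 (miR-18a deleted), Δ19 (miR-19a and miR-19b-1 deleted), Δ17 (miR-17 and miR-20a deleted), Δ17,18 (the deletions of Δ17 plus that of miR-18a), Δ17,18,92 (those of Δ17,18 plus that of miR-92a-1) and the full knockout of the cluster, and they were set against wild type. There were 71 libraries, 3 from separate samples for each genotype and tissue, but 2 for the embryo remainder of Δ17,18,92. The labels do not say whether the embryos carried the deletions on both chromosomes or how many embryos made 1 library.

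Library totals ran from 13532012 to 27477273 counts. Myh6 and Tnnt2, genes of heart muscle, reached at least 6968 and 2409 CPM (counts scaled to a common library size) in every heart library and at most 6.84 and 2.18 CPM in tail bud, while T and Cdx2, genes of the tail bud, were at least 207 and 136 CPM in every tail bud library and at most 5.84 and 4.08 CPM in heart. Mir17hg, the gene of the primary transcript, was higher in the full knockout than in wild type (408 ± 18.2 against 146 ± 3.12 CPM in the embryo remainder, SD, n = 3 each); counts over the whole transcript do not check the deletions. Genotypes were unequal in sex, as read from Xist and Y-linked genes: in each tissue all 3 libraries of Δ92 read as female, all 3 of the full knockout as male, and those of wild type as 1 female (replicate 2) and 2 male. The sex read for a replicate number was the same in all tissues for 24 of 24 genotypes and numbers. Wild-type tail bud replicate 3 stood apart by its Xist: it held 49.2 CPM of Xist beside 241 CPM of Y-linked genes. It also held 5.07 CPM of Myh6, where the other wild-type tail buds held 0.495 and 1.13 CPM. Among the mutants, tail bud replicate 1 of Δ17,18 held more Myh6, at 6.84 CPM. Tail bud values without wild-type replicate 3 are given beside those of Δ92 and Δ18 and beside the counts of genes called.

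The mature microRNAs that the alleles remove are shown with the seed in capitals, since the seed decides which messages each family can pair with. Sequences and positions are RefSeq's, on the GRCm38.p6 build, where these 6 lie between positions 115043684 and 115044496 of the plus strand of chromosome 14.
miR-17-5p: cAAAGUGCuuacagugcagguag
miR-20a-5p: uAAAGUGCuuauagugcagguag
miR-18a-5p: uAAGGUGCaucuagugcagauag
miR-19a-3p: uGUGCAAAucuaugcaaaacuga
miR-19b-3p: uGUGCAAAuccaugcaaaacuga
miR-92a-3p: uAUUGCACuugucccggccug
miR-17-5p and miR-20a-5p share the seed AAAGUGC and miR-19a-3p and miR-19b-3p share GUGCAAA, while miR-18a-5p and miR-92a-3p each have a seed of their own. miR-19b-3p and miR-92a-3p are also made from a second locus on chromosome X, at 52741991-52742013 and 52741854-52741874 of the minus strand, which is outside this cluster.

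Matches to these seeds were searched in the longest annotated 3′ UTR of each of the 10 genes (GENCODE annotation of GRCm38), on the message strand. A match pairs with all 7 seed bases, and an 8mer match has an A after them. GCACTTT, the miR-17 match, occurred in Ccng1, Trp53inp1 and Sesn2 and in 12.2% of 21166 UTRs; GCACCTT, the miR-18 match, occurred in Ccng1 and in 8.57% of UTRs. TTTGCAC, the miR-19 match, occurred in Trp53inp1, Phlda3, Zmat3 and Aen and in 12.0% of UTRs, and GTGCAAT, the miR-92 match, occurred in Zmat3 and in 6.89% of UTRs. The matches in the genes that the results turn on are printed with their neighbouring bases, the match in capitals.
Ccng1, miR-17 match, UTR position 1461: atttcatgaatGCACTTTtaaggtattaa
Ccng1, miR-18 match, UTR position 1177: gagaaacctcaGCACCTTgccacagtagc
Phlda3, miR-19 8mer match, UTR position 582: tgtaccctttcTTTGCACActtcttccctc
Aen, miR-19 8mer match, UTR position 2960: ctcttaagccaTTTGCACAgtgataaatag
Zmat3, miR-92 match, UTR position 4234: tccatttcctaGTGCAATctcaatttgct
Ccng1, Trp53inp1 and Zmat3 thus each hold matches to 2 of the families, and Eda2r, Mdm2, Bax and Perp held none in these UTRs. A match is a description of the letters and not a measured site.

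The 250 bases before the start site of 4 members are printed because Ccng1, Eda2r and Phlda3 were the members that varied most alike over the libraries, and Bax is shown for its p53 response element (RefSeq, GRCm38.p6). Capitals mark a match to the p53 response element, a pair of half-sites next to each other or 1 base apart, with at most 3 mismatches to the consensus; the consensus reads alike on both strands.
Ccng1, chr11:40755287-40755536, minus strand: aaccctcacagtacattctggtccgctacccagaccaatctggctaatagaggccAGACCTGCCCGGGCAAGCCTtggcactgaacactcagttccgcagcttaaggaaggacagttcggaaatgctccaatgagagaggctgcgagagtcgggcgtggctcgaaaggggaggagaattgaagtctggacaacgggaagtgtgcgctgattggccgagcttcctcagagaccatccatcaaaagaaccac
Bax, chr7:45466899-45467148, minus strand: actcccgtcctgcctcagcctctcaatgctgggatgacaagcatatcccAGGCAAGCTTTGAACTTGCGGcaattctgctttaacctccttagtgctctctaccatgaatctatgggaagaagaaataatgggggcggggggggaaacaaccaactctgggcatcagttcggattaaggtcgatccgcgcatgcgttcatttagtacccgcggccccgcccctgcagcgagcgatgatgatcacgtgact
Eda2r, chrX:97377210-97377459, minus strand: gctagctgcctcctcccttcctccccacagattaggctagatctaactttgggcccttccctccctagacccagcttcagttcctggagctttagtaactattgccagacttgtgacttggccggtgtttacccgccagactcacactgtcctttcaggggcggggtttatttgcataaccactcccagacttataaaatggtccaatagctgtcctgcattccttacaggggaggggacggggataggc
Phlda3, chr1:135765835-135766084, plus strand: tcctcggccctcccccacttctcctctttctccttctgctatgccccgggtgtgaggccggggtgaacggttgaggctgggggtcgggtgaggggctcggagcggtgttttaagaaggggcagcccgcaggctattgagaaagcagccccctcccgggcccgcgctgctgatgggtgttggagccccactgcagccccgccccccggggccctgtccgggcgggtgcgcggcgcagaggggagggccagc
The match in Ccng1 began at position -195 relative to the start site, with 1 mismatch, and that in Bax at -201, with 2 mismatches. Aen, whose promoters are listed from 2 start sites, had a match with 3 mismatches at 10 and -121. Windows of 300 bases around the start sites of Eda2r, Mdm2, Phlda3 and Sesn2 had no such match, and Trp53inp1, Zmat3 and Perp were not looked up here. Among 32851 promoters of the same length, 2.825% held a match. No match says only that these letters are not in this window.

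In wild type, several of the 10 genes had tissue-specific levels. Ccng1, which encodes cyclin G1, a target of p53 that acts in feedback on Mdm2 (chr11:40748552-40755311 on GRCm38), had 184, 173 and 191 CPM in heart, against 63.0, 57.4 and 71.0 CPM in tail bud and 63.1, 55.4 and 59.2 CPM in the embryo remainder. Every heart library lay far above every other one. Perp, a membrane protein of desmosomes and of p53-dependent cell death (chr10:18845020-18857073), had 52.9, 55.1 and 61.5 CPM in heart, 20.8, 20.5 and 23.7 CPM in tail bud and 9.10, 10.5 and 10.5 CPM in the embryo remainder. The tissues did not overlap for Perp, with heart highest and the embryo remainder lowest. Phlda3, an inhibitor of Akt signalling (chr1:135766119-135769136), had 26.1, 25.1 and 22.0 CPM in heart, 10.9, 10.6 and 11.7 CPM in tail bud and 7.25, 8.29 and 8.80 CPM in the embryo remainder, the same order without overlap.

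edgeR's quasi-likelihood test across all genes, with Benjamini-Hochberg adjusted p under 0.05, called 9 of the 10 genes different between wild-type heart and tail bud, where 68.6% of all genes tested were called. Ccng1 was 2.85-fold higher in heart than in tail bud (log2 fold change 1.51 ± 0.08, SE; adjusted p = 2.44e-09), Perp 2.59-fold (1.37 ± 0.09; adjusted p = 2.47e-08) and Phlda3 2.20-fold (1.14 ± 0.10; adjusted p = 5.60e-07). Trp53inp1, a p53-induced nuclear protein of the stress response, Mdm2 and Zmat3, an RNA-binding zinc finger protein, were higher in heart by smaller amounts (0.71 ± 0.12, 0.44 ± 0.06 and 0.29 ± 0.06). Sesn2, a stress-induced regulator of mTORC1 (-0.61 ± 0.09), Aen, a nuclease of apoptosis (-0.41 ± 0.06), and Bax, which opens the outer mitochondrial membrane in apoptosis (-0.40 ± 0.10), were lower in heart. Eda2r, a receptor of the TNF receptor family, was not called (-0.33 ± 0.15; adjusted p = 0.0676).

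Between heart and the embryo remainder 7 of the 10 genes were called, against 68.1% of all genes, with Perp 5.55-fold higher in heart (2.47 ± 0.10; adjusted p = 1.61e-10), Ccng1 3.05-fold (1.61 ± 0.08; adjusted p = 1.44e-09) and Phlda3 2.97-fold (1.57 ± 0.11; adjusted p = 3.13e-08). The call of Aen there (-0.14 ± 0.06; adjusted p = 0.0477) was kept in 1 of 6 fits that left out 1 library and was lost with replicate numbers as a block (adjusted p = 0.0553). Between tail bud and the embryo remainder 6 of the 10 genes were called, against 29.8% of all genes: Perp (1.10 ± 0.10), Bax (0.45 ± 0.10), Phlda3 (0.43 ± 0.11) and Aen (0.27 ± 0.06) were higher in tail bud, and Trp53inp1 (-0.33 ± 0.12) and Zmat3 (-0.24 ± 0.06) were lower. The call of Trp53inp1 (adjusted p = 0.0484) was kept in 1 of 6 fits that left out 1 library. Without wild-type tail bud replicate 3, the log2 fold change of Bax was -0.26 for heart over tail bud and 0.30 for tail bud over the embryo remainder, and 9 and 6 members were called. In bulk tissue, fewer cells of a type and less RNA per cell cannot be told apart.

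**Figure D1:**
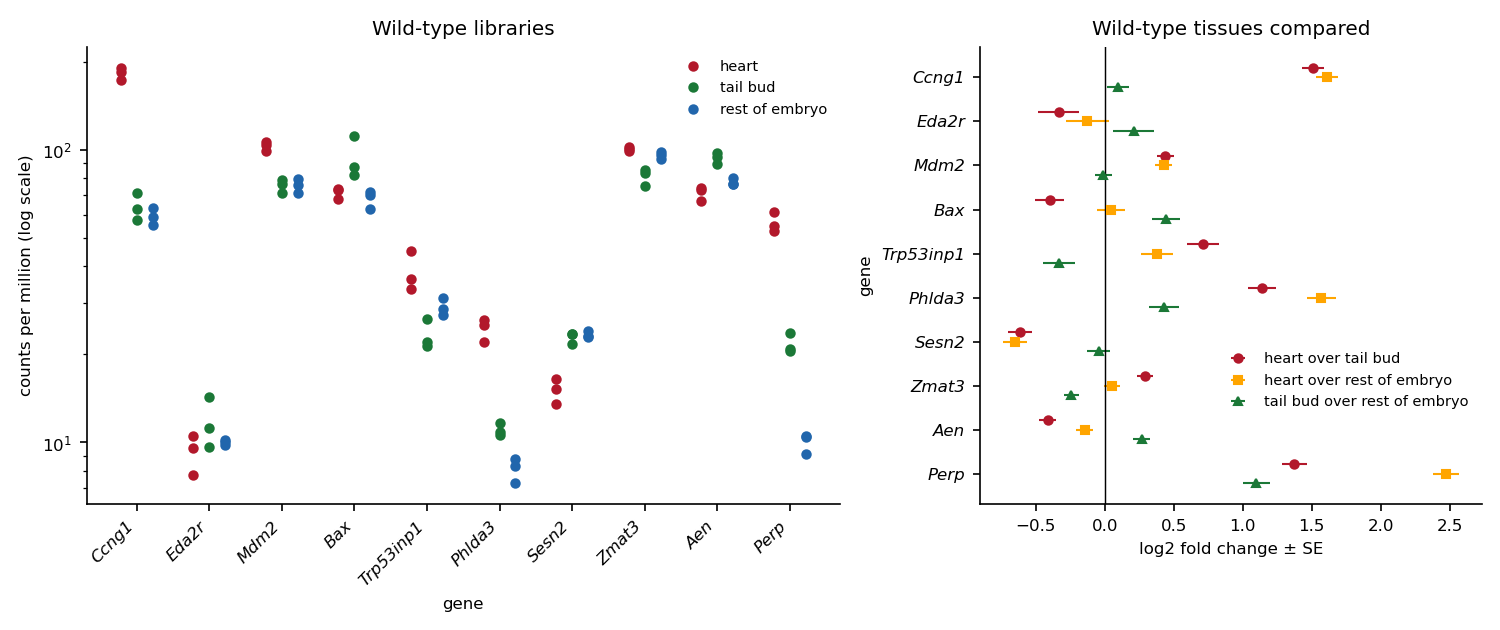
Levels of the 10 genes in the 9 wild-type libraries (left, CPM on a log axis, 1 point per library) and log2 fold changes between wild-type tissues with their standard errors (right, vertical line at no change). Ccng1, Perp and Phlda3 lie well above the other tissues in heart, at 1.14 to 2.47 on the log2 scale, while Sesn2 lies below them.

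Ccng1, Eda2r and Phlda3 had their lowest mean levels of all genotypes in Δ92, in each tissue. Ccng1 had 41.6, 41.0 and 36.6 CPM in the embryo remainder of Δ92, against 63.1, 55.4 and 59.2 CPM in wild type. In tail bud it had 49.1, 45.4 and 38.2 CPM in Δ92, against 63.0, 57.4 and 71.0 CPM in wild type. The groups did not overlap in either tissue. In heart, Ccng1 had 142, 176 and 136 CPM in Δ92, against 184, 173 and 191 CPM in wild type, and there 1 library of Δ92 lay above the lowest wild-type library. The log2 fold changes of Ccng1 in Δ92 over wild type were -0.58 ± 0.07 in the embryo remainder, -0.53 ± 0.10 in tail bud and -0.23 ± 0.08 in heart (SE).

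Eda2r, which binds the A2 form of ectodysplasin and can signal cell death (chrX:97333840-97377216), had 5.99, 5.15 and 4.92 CPM in the embryo remainder of Δ92, against 10.0, 9.81 and 10.2 CPM in wild type. All Δ92 libraries were well below the wild-type ones, which lay close together. In tail bud it had 9.77, 8.34 and 7.59 CPM in Δ92, against 11.2, 9.64 and 14.3 CPM in wild type, and in heart 6.56, 8.19 and 3.21 CPM in Δ92, against 10.5, 9.55 and 7.76 CPM in wild type. Both of these pairs of groups overlapped by 1 library. The log2 fold changes were -0.91 ± 0.12 in the embryo remainder, -0.44 ± 0.17 in tail bud and -0.58 ± 0.30 in heart.

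Phlda3 had 9.18, 8.58 and 7.59 CPM in tail bud of Δ92, against 10.9, 10.6 and 11.7 CPM in wild type. In heart it had 21.5, 21.7 and 19.5 CPM in Δ92, against 26.1, 25.1 and 22.0 CPM in wild type, and in the embryo remainder 7.01, 6.36 and 6.39 CPM in Δ92, against 7.25, 8.29 and 8.80 CPM in wild type. The groups did not overlap in any tissue, although the gap in heart and in the embryo remainder was small. Its log2 fold changes were -0.38 ± 0.11 for tail bud, -0.19 ± 0.11 for heart and -0.31 ± 0.10 for the embryo remainder.

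**Figure D2:**
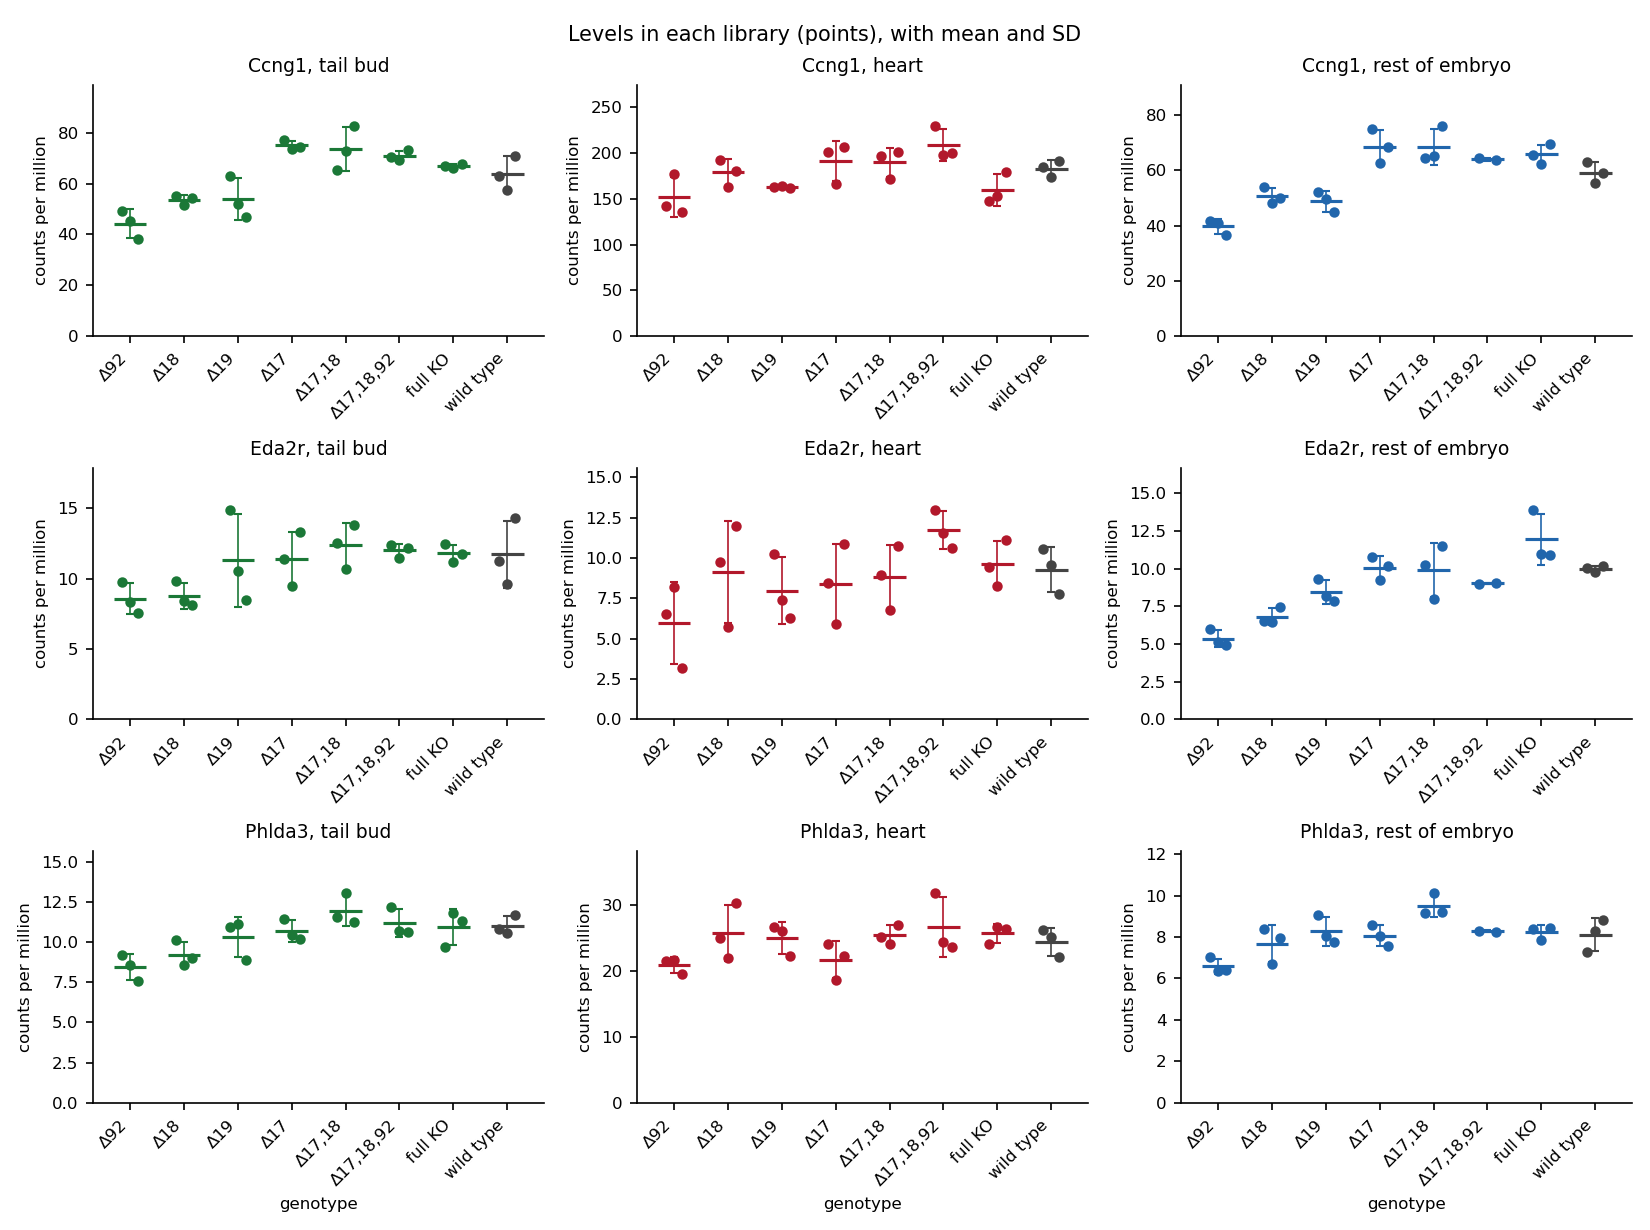
Levels of Ccng1, Eda2r and Phlda3 in CPM in every library, by genotype (mutants left, wild type right) and tissue, with 1 point per library, a bar at the mean of the group and whiskers of 1 SD. The means of Δ92 are the lowest for all 3 genes in each tissue, with Ccng1 in the embryo remainder at 36.6 to 41.6 CPM against 55.4 to 63.1 CPM in wild type.

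The other members differed less between Δ92 and wild type. Trp53inp1 had 26.7, 24.5 and 23.9 CPM in the embryo remainder of Δ92, against 28.5, 27.3 and 31.2 CPM in wild type (-0.22 ± 0.08), without overlap, and -0.14 ± 0.12 in tail bud and -0.03 ± 0.15 in heart, with overlap. Mdm2, the ubiquitin ligase of p53, had log2 fold changes of 0.01 ± 0.04 for tail bud, -0.07 ± 0.05 for heart and -0.02 ± 0.05 for the embryo remainder. The changes of Bax ran from -0.17 to 0.00, those of Sesn2 from -0.16 to -0.08, those of Zmat3 from -0.16 to -0.04, those of Aen from -0.10 to -0.01 and those of Perp from -0.10 to 0.04.

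Over the 10 genes, the median log2 fold change in Δ92 was -0.15 for tail bud, -0.09 for heart and -0.10 for the embryo remainder, beside medians of -0.01, 0.00 and 0.00 over all genes tested. Values were below 0 for 9, 10 and 9 of the 10 genes. All Δ92 libraries lay below all wild-type libraries for 2 of the 10 genes in tail bud (5.58% of all genes), for 3 in heart (10.1% of all genes) and for 6 in the embryo remainder (6.29% of all genes). These genes were Ccng1 and Phlda3 in tail bud, Mdm2, Phlda3 and Zmat3 in heart, and Ccng1, Eda2r, Trp53inp1, Phlda3, Sesn2 and Zmat3 in the embryo remainder. For none of the 10 genes did all Δ92 libraries lie above all wild-type ones, which 6.11% of all genes did for tail bud, 3.1% for heart and 7.75% for the embryo remainder. Because the members were chosen with this contrast known, nothing is read from these counts.

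Several measures moved together with the values of Δ92. Without wild-type tail bud replicate 3, the tail bud changes in Δ92 were -0.44 for Ccng1, -0.27 for Eda2r and -0.34 for Phlda3, and the median of the 10 genes was -0.08. Those of Bax, Trp53inp1 and Perp were then -0.02, -0.04 and 0.04, and that of Mdm2 was -0.02. All Δ92 libraries read as female, and Eda2r lies on the X chromosome. With embryo sex as a term, chosen after the data were seen, the changes in tail bud, heart and the embryo remainder were -0.47, -0.21 and -0.57 for Ccng1, -0.32, -0.51 and -0.97 for Eda2r and -0.32, -0.18 and -0.26 for Phlda3. The female wild-type libraries lay above all 3 female Δ92 libraries for Phlda3 in each tissue, for Ccng1 in tail bud and the embryo remainder and for Eda2r in heart and the embryo remainder. For Ccng1 in heart 1 female Δ92 library was higher (176 CPM in Δ92, against 173 CPM in wild type), as was 1 for Eda2r in tail bud (9.77 CPM in Δ92, against 9.64 CPM in wild type). No member was called for sex itself in any tissue (edgeR, adjusted p of at least 0.789). The lowest of these was that of Zmat3 in heart, with 0.16 ± 0.05 (SE) for male over female. With the sex term, the change of Zmat3 in Δ92 heart went from -0.16 to -0.06. That of Sesn2 there went from -0.08 to -0.002, while that of Aen went from -0.01 to -0.06. The summed level of 8 heart muscle markers in the embryo remainder was 311 to 369 CPM in Δ92, against 224 to 296 CPM in wild type. That of 7 endothelial markers was 422 to 448 CPM in Δ92, against 400 to 417 CPM in wild type. That of 5 neural crest markers was 157 to 169 CPM in Δ92, against 143 to 153 CPM in wild type. Their part in the low values was not tested. In heart, the change of Eda2r in Δ92 was -0.88 without Δ92 replicate 2 and -0.29 without Δ92 replicate 3.

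Δ18 had lower values of a part of the same genes in tail bud and the embryo remainder. Ccng1 had 55.0, 51.7 and 54.2 CPM in Δ18 tail bud, against 63.0, 57.4 and 71.0 CPM in wild type (-0.25 ± 0.10). It had 53.9, 48.3 and 50.2 CPM in the embryo remainder of Δ18, against 63.1, 55.4 and 59.2 CPM in wild type (-0.23 ± 0.07). The groups did not overlap in either tissue, while in heart Ccng1 had 192, 163 and 180 CPM in Δ18, against 184, 173 and 191 CPM in wild type, with overlap (-0.03 ± 0.08). Eda2r had 6.51, 6.46 and 7.48 CPM in the embryo remainder of Δ18, against 10.0, 9.81 and 10.2 CPM in wild type, without overlap (-0.57 ± 0.12). In tail bud it had 9.80, 8.42 and 8.09 CPM in Δ18, against 11.2, 9.64 and 14.3 CPM in wild type, with overlap (-0.41 ± 0.17), and its heart value was -0.03 ± 0.28.

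Aen, which digests DNA and RNA in p53-dependent apoptosis (chr7:78895854-78911209), was lower without overlap in tail bud of Δ18, at 76.4, 81.6 and 84.5 CPM against 97.5, 89.6 and 94.7 CPM in wild type (-0.22 ± 0.07). It was also lower in the embryo remainder, at 68.9, 72.6 and 72.6 CPM in Δ18 against 76.4, 76.4 and 79.9 CPM in wild type (-0.13 ± 0.05). Phlda3 was lower without overlap in tail bud (-0.26 ± 0.11) and overlapped in heart (0.08 ± 0.11) and in the embryo remainder (-0.09 ± 0.10). Mdm2 was the one member that lay higher without overlap, at 79.4, 80.0 and 79.5 CPM in Δ18 tail bud against 76.1, 78.9 and 71.2 CPM in wild type (0.07 ± 0.04).

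The median log2 fold change of the 10 genes in Δ18 was -0.13 for tail bud, -0.03 for heart and -0.04 for the embryo remainder, beside 0.00 over all genes in each tissue. All Δ18 libraries were below all wild-type ones for 3 members in tail bud (6.15% of all genes), 1 in heart (Zmat3; 4.85%) and 3 in the embryo remainder (6.88%), and above them for 1 in tail bud (6.31%) and for 0 in heart (5.25%) and the embryo remainder (9.39%). Without wild-type tail bud replicate 3, the tail bud changes in Δ18 were -0.16 for Ccng1, -0.24 for Eda2r and -0.21 for Phlda3. Those of Bax, Perp and Trp53inp1 were then 0.01, 0.02 and 0.09, and that of Mdm2 was 0.04. The change of Zmat3 in Δ18 heart was -0.10, and -0.05 with embryo sex as a term. In the hearts, 7 markers of primitive red cells summed to 3179 to 10536 CPM in Δ18 and to 1084.5 to 3063 CPM in wild type, without overlap. Their part in the heart values was not tested. In the embryo remainder, all 7 markers of visceral endoderm and yolk sac had log2 fold changes below 0 in Δ18, at -3.15 to -1.53, and they summed to 40.9 to 63.0 CPM in Δ18 and to 54.9 to 502 CPM in wild type, with overlap. There 8 markers of presomitic mesoderm and tail bud summed to 71.0 to 72.4 CPM in Δ18 and to 60.3 to 70.1 CPM in wild type, without overlap. The part of these in the values of Ccng1, Eda2r and Aen was not tested.

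**Figure D3:**
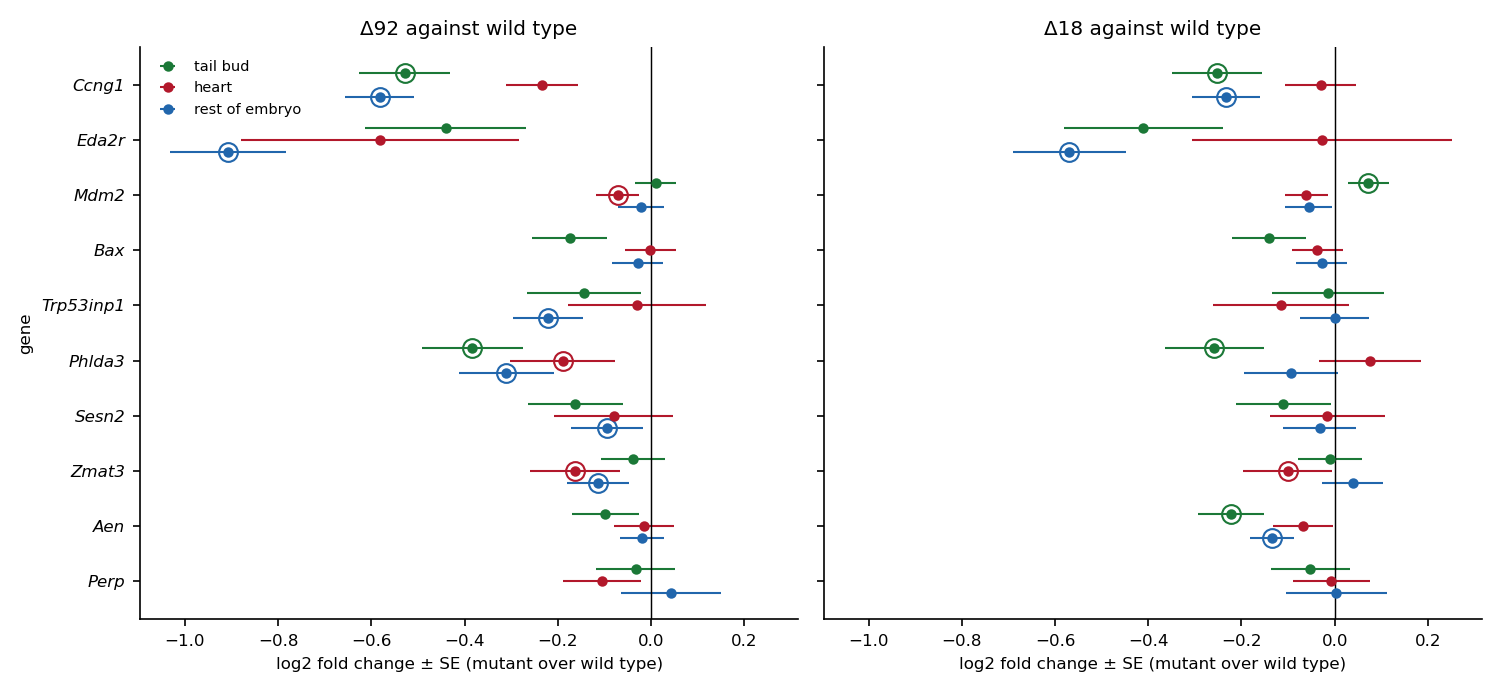
Log2 fold changes over wild type of the 10 genes in Δ92 and Δ18, with standard errors, in each tissue; a ring marks genes whose mutant and wild-type libraries do not overlap, and the line at 0 is no change. Eda2r and Ccng1 reach the lowest values, -0.91 and -0.58 in the embryo remainder of Δ92, and Mdm2, Bax, Aen and Perp lie between -0.03 and 0.04 in the same comparison.

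Set in order of level in the embryo remainder, Ccng1 was lowest in Δ92 (39.8 ± 2.74 CPM), then Δ19 (48.9 ± 3.74 CPM) and Δ18 (50.8 ± 2.87 CPM), whose libraries overlapped, and then wild type (59.2 ± 3.86 CPM). Δ17,18,92 (64.1 ± 0.564 CPM, n = 2), the full knockout (65.8 ± 3.53 CPM), Δ17,18 (68.5 ± 6.43 CPM) and Δ17 (68.6 ± 6.17 CPM) followed and overlapped one another (SD, n = 3 unless given). The means of the 3 alleles that keep miR-17 and miR-20a were thus below wild type and those of the 4 that lack them above it, of which Δ17 and the full knockout overlapped wild type. In tail bud the low end held the same alleles, with Δ92 at 44.3 ± 5.54 CPM, Δ18 at 53.6 ± 1.72 CPM and Δ19 at 54.0 ± 8.31 CPM, whose libraries overlapped both others, and the highest was Δ17 at 75.0 ± 1.80 CPM, against wild type at 63.8 ± 6.82 CPM. In heart Δ92 (152 ± 21.8 CPM) was lowest, followed by the full knockout (160 ± 17.3 CPM), and Δ17,18,92 (209 ± 17.5 CPM) was highest, with wild type at 183 ± 8.90 CPM, and neighbours in the order overlapped.

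Eda2r in the embryo remainder was lowest in Δ92 (5.35 ± 0.563 CPM), then Δ18 (6.82 ± 0.575 CPM) and Δ19 (8.45 ± 0.791 CPM), with no overlap between neighbours, and highest in the full knockout (11.9 ± 1.71 CPM), with wild type at 10.0 ± 0.175 CPM. Phlda3 there was lowest in Δ92 (6.59 ± 0.367 CPM), which overlapped Δ18 (7.68 ± 0.881 CPM), and highest in Δ17,18 (9.49 ± 0.550 CPM), which lay above every other library, with wild type at 8.12 ± 0.788 CPM.

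The loss of miR-92a-1 was also compared in another setting, by setting Δ17,18,92 against Δ17,18, which differ in miR-92a-1. The genes were chosen for their values in Δ92 and Δ18 but with results of these data known, so this comparison is not independent of the choice. The groups were unequal in sex. In the embryo remainder both Δ17,18,92 libraries read as male, against 1 male and 2 female in Δ17,18. In tail bud and heart, Δ17,18,92 read as 2 male and 1 female, against 1 male and 2 female in Δ17,18. In the embryo remainder, Ccng1 had 64.5 and 63.7 CPM in Δ17,18,92, against 64.4, 65.3 and 75.9 CPM in Δ17,18, and the groups overlapped. Its log2 fold change was -0.10 with a 95% interval of -0.26 to 0.05 there, -0.05 in tail bud (-0.24 to 0.13) and 0.07 in heart (-0.08 to 0.22). Eda2r had -0.13 (-0.39 to 0.12) in the embryo remainder, -0.04 (-0.37 to 0.28) in tail bud and 0.34 (-0.20 to 0.88) in heart. Phlda3 had 8.31 and 8.26 CPM in the embryo remainder of Δ17,18,92, against 9.17, 10.1 and 9.19 CPM in Δ17,18, without overlap (-0.21, -0.42 to 0.00; adjusted p = 0.382). edgeR called 0 of the 10 genes in each tissue, against 0.67%, 0.693% and 2.52% of all genes in tail bud, heart and the embryo remainder. DESeq2 called 0 in each as well, and 0, 1 and 1 of the 10 genes had an unadjusted p under 0.05, against 10.8%, 15.5% and 14.5% of all genes. Cell type markers also differed in the embryo remainder, without overlap. Heart muscle markers (8) summed to 382 to 564 CPM in Δ17,18,92 and to 269 to 368 CPM in Δ17,18. Endothelial markers (7) summed to 450 to 488 CPM in Δ17,18,92 and to 398 to 408 CPM in Δ17,18. Markers of primitive red cells (7) summed to 2012 to 2046 CPM in Δ17,18,92 and to 2548 to 4587 CPM in Δ17,18. Smaller shifts without overlap were those of 5 neural crest markers, at 165 to 169 CPM in Δ17,18,92 and 156 to 164 CPM in Δ17,18, and of 7 yolk sac markers, at 53.5 to 59.1 CPM in Δ17,18,92 and 42.0 to 48.0 CPM in Δ17,18. Their part in the values of the 10 genes was not tested.

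The loss of miR-18a was compared in the same way by setting Δ17,18 against Δ17. In each tissue Δ17,18 read as 1 male and 2 female, and Δ17 as 2 male and 1 female. Ccng1 changed by 0.00 (95% interval -0.14 to 0.14) in the embryo remainder, -0.03 (-0.22 to 0.16) in tail bud and 0.01 (-0.14 to 0.16) in heart. Aen changed by -0.05 (-0.15 to 0.04), -0.06 (-0.20 to 0.08) and -0.03 (-0.16 to 0.09) in the same tissues. Phlda3 had 9.17, 10.1 and 9.19 CPM in the embryo remainder of Δ17,18, against 8.58, 8.05 and 7.57 CPM in Δ17, without overlap (0.24 ± 0.10; adjusted p = 0.371). Eda2r had 10.3, 7.96 and 11.5 CPM in the embryo remainder of Δ17,18, against 10.8, 9.23 and 10.2 CPM in Δ17, with overlap. It changed by -0.03 (95% interval -0.25 to 0.20) there, 0.11 (-0.22 to 0.44) in tail bud and 0.08 (-0.48 to 0.64) in heart. The largest value of a member in this contrast was that of Perp in the embryo remainder, 0.27 ± 0.11 (adjusted p = 0.376), with overlap. There 7 yolk sac markers summed to 42.0 to 48.0 CPM in Δ17,18 and to 63.0 to 285 CPM in Δ17, without overlap. The 10 immediate early and heat shock genes summed to 173 to 179 CPM in Δ17,18 and to 159 to 163 CPM in Δ17, also without overlap. Of the red cell markers, Gata1 (0.58) and Klf1 (0.70) were higher in Δ17,18 without overlap, while the sum of 7 such markers overlapped. The part of these in the values of Phlda3 and Perp was not tested. edgeR and DESeq2 called 0 of the 10 genes in each tissue, against 0%, 0.0179% and 0.137% of all genes by edgeR in tail bud, heart and the embryo remainder, and 0, 1 and 3 of the 10 had an unadjusted p under 0.05, against 7.6%, 7.03% and 9.72% of all genes.

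**Figure D4:**
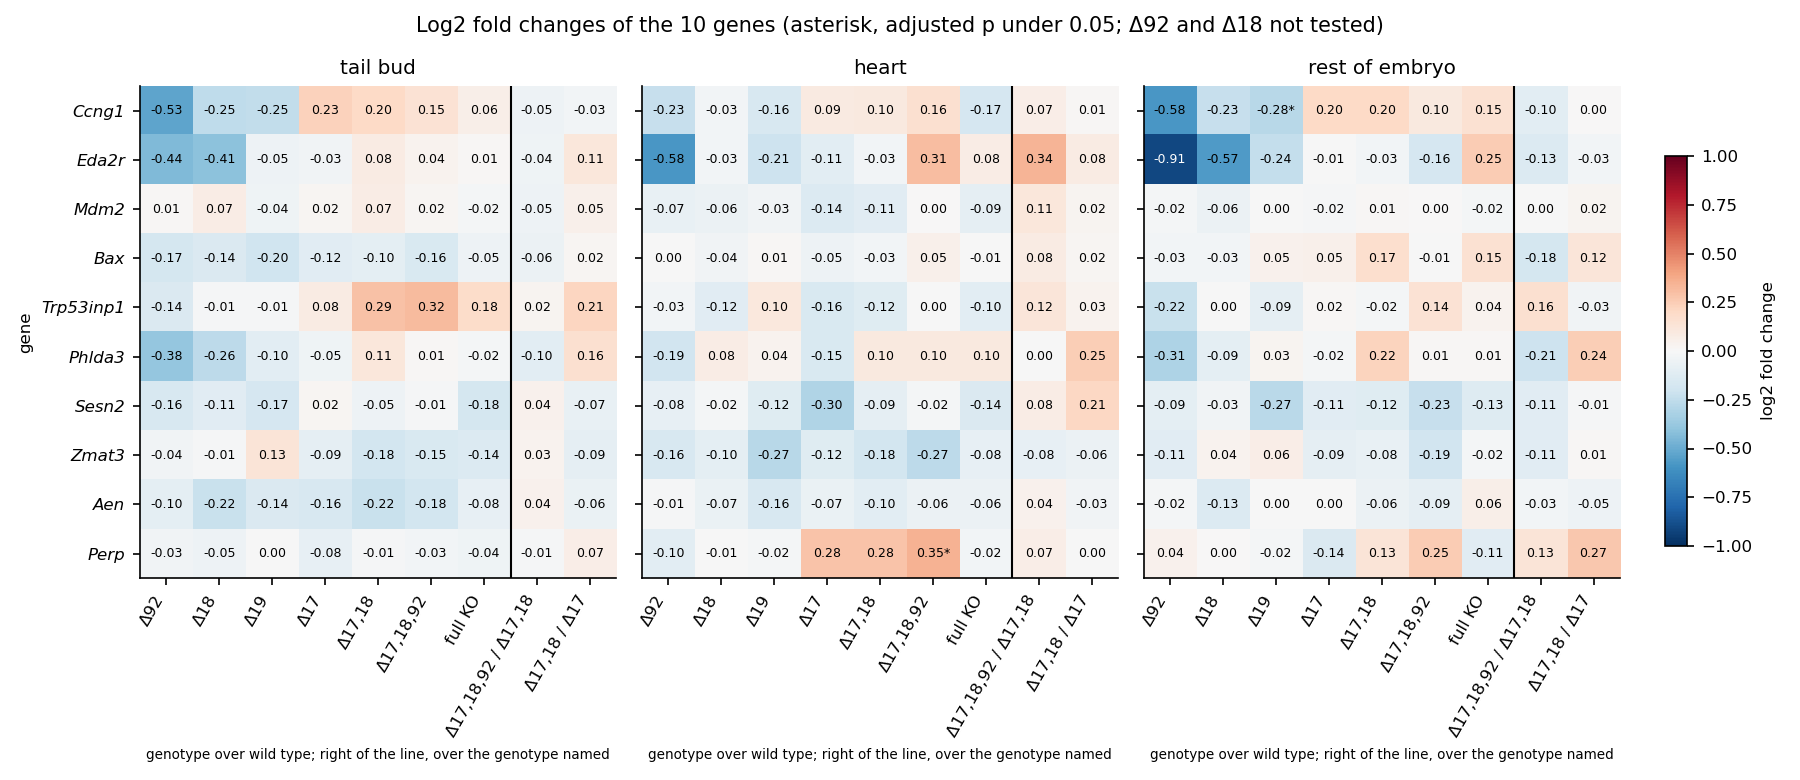
Log2 fold changes of the 10 genes in each tissue for the 7 mutant genotypes over wild type and, right of the vertical line, for Δ17,18,92 over Δ17,18 and Δ17,18 over Δ17; blue is lower and red higher in the genotype named first, and an asterisk marks an adjusted p under 0.05. The darkest blue cell is Eda2r in the embryo remainder of Δ92 (-0.91), and the asterisks stand at Perp in heart of Δ17,18,92 (0.35) and Ccng1 in the embryo remainder of Δ19 (-0.28).

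The 5 other genotypes were tested against wild type, whose libraries they share with the comparisons of Δ92 and Δ18. In 2 of these 15 comparisons a member was called, and without wild-type tail bud replicate 3 the number called in tail bud was 0 in each of the 5 genotypes, as with it. Ccng1 fell in the embryo remainder of Δ19, with 52.2, 49.5 and 44.8 CPM in Δ19 against 63.1, 55.4 and 59.2 CPM in wild type. All Δ19 libraries lay below all wild-type libraries, and the log2 fold change was -0.28 ± 0.07 (edgeR, adjusted p = 0.0479), in a comparison where 0.891% of all genes fell and 1.88% were called in either direction. The call was kept in 1 of 6 fits that left out 1 library, with a highest adjusted p of 0.229 without wild-type replicate 1, and was lost with embryo sex as a term (adjusted p = 0.0794). In these libraries 5 neural crest markers summed to 157 to 160 CPM in Δ19 and to 143 to 153 CPM in wild type, without overlap, and their part in the fall of Ccng1 was not tested. Ccng1 values were -0.25 ± 0.10 in tail bud (adjusted p = 0.195; -0.15 without wild-type tail bud replicate 3) and -0.16 in heart of Δ19 (adjusted p = 0.443).

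Perp rose in heart of Δ17,18,92, with 83.0, 67.6 and 69.3 CPM in Δ17,18,92 against 52.9, 55.1 and 61.5 CPM in wild type. All mutant hearts lay above all wild-type hearts, and the log2 fold change was 0.35 ± 0.08 (edgeR, adjusted p = 0.0208), in a comparison where 1.56% of all genes rose and 1.89% were called in either direction. The call was kept in 3 of 6 fits that left out 1 library, with a highest adjusted p of 0.152 without wild-type heart replicate 1, and was lost when only both groups were fitted (adjusted p = 0.0685). Hearts of other genotypes without miR-17 gave 0.28 ± 0.08 in Δ17 (71.0, 60.4 and 71.6 CPM; adjusted p = 0.156) and 0.28 ± 0.08 in Δ17,18 (68.8, 61.5 and 69.7 CPM; adjusted p = 0.0935), and the full knockout gave -0.02. In the hearts, 8 surface epithelium markers, a tissue known for high Perp, summed to 108 to 132 CPM in Δ17,18,92 and to 98.3 to 117 CPM in wild type, with overlap. There 5 neural crest markers summed to 33.5 to 39.3 CPM in Δ17,18,92 and to 26.9 to 30.5 CPM in wild type, without overlap, although Tfap2b among them was lower without overlap (-1.95; adjusted p = 0.0908). The sums of 7 endothelial markers overlapped, at 1101 to 1201 CPM in Δ17,18,92 and 1060 to 1105 CPM in wild type. edgeR called the endothelial marker Pecam1 higher (0.34; adjusted p = 0.00364) and the yolk sac marker Apob lower (-1.65; adjusted p = 0.0406). The part of these in the rise of Perp was not tested.

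In the full knockout, edgeR and DESeq2 called 0 of the 10 genes in each tissue, while edgeR called 10.4% of all genes for tail bud, 3.91% for heart and 6.66% for the embryo remainder. At an unadjusted p under 0.05 stood 0, 1 and 3 of the 10, against 26.6%, 17.4% and 18.4% of all genes. Eda2r had 13.9, 11.0 and 10.9 CPM in the embryo remainder of the full knockout, against 10.0, 9.81 and 10.2 CPM in wild type (0.25 ± 0.11; adjusted p = 0.218), and Bax had 78.7, 72.7 and 76.0 CPM there, against 71.8, 62.8 and 70.1 CPM in wild type (0.15 ± 0.05; adjusted p = 0.106). Neither pair of groups overlapped. Ccng1 gave 0.06 ± 0.10 for tail bud (0.15 ± 0.10 without wild-type replicate 3), -0.17 ± 0.08 for heart and 0.15 ± 0.07 for the embryo remainder. A test for unequal changes of the knockout in the 3 tissues called 0 of the 10 genes by edgeR and by DESeq2, against 0.0399% of all genes, and Ccng1 was the one member with an unadjusted p under 0.05 (adjusted p = 0.552), which 7.17% of all genes had.

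In Δ17, edgeR and DESeq2 called 0 of the 10 genes in each tissue, against 1.77%, 0.555% and 1.56% of all genes by edgeR in tail bud, heart and the embryo remainder. There 2, 3 and 1 members had an unadjusted p under 0.05, against 15.4%, 8.3% and 9.79% of all genes, among them Ccng1 in tail bud, with 77.0, 73.7 and 74.2 CPM in Δ17 against 63.0, 57.4 and 71.0 CPM in wild type (0.23 ± 0.10; adjusted p = 0.258). Δ17,18 had 0 called by edgeR in each tissue, against 8.31%, 1.12% and 4.44% of all genes, with 4, 2 and 3 members at an unadjusted p under 0.05, against 25.8%, 13.1% and 18.1% of all genes, and DESeq2 called 1 in tail bud. Bax in the embryo remainder of Δ17,18 had 77.2, 74.8 and 79.2 CPM, against 71.8, 62.8 and 70.1 CPM in wild type (0.17 ± 0.05; adjusted p = 0.0705). Aen in tail bud had 88.5, 75.4 and 78.9 CPM in Δ17,18, against 97.5, 89.6 and 94.7 CPM in wild type (-0.22 ± 0.07; adjusted p = 0.0524, and 0.183 without wild-type tail bud replicate 3). Both pairs of groups were free of overlap.

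In Δ19, edgeR and DESeq2 called 0 members in tail bud and heart, against 1.03% and 0.406% of all genes by edgeR, with 2 and 2 members at an unadjusted p under 0.05, against 17.9% and 11.4% of all genes. In the embryo remainder of Δ19, 3 members and 13.7% of all genes were at that level. Δ17,18,92 had 0 called by both tools in tail bud and the embryo remainder, against 5.57% and 5.62% of all genes by edgeR, with 3 and 3 members at an unadjusted p under 0.05, against 22.1% and 18.3% of all genes. In its hearts 3 members and 13.3% of all genes were at that level. Trp53inp1 in tail bud had 31.3, 27.2 and 28.6 CPM in Δ17,18,92, against 21.4, 22.0 and 26.3 CPM in wild type, without overlap (0.32 ± 0.12; adjusted p = 0.120). Zmat3 in heart had 88.3, 80.9 and 79.3 CPM in Δ19, against 102, 99.2 and 100.5 CPM in wild type, without overlap, and its change was -0.27 ± 0.10 (adjusted p = 0.244). Sesn2, which is a target of ATF4 as well as of p53, had 20.1, 21.4 and 16.8 CPM in the embryo remainder of Δ19, against 23.0, 23.2 and 24.1 CPM in wild type, without overlap (-0.27 ± 0.08; adjusted p = 0.0751).

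Of 36 other p53 targets, 33 to 34 were tested in each tissue, and they moved in both directions. In Δ92 their median log2 fold change was 0.00 for tail bud, -0.02 for heart and -0.03 for the embryo remainder, and in Δ18 it was 0.00, 0.01 and 0.01. Cdkn1a, which encodes the cell cycle inhibitor p21 and is the best known p53 target, had 0.13 ± 0.17, -0.21 ± 0.26 and -0.15 ± 0.11 in tail bud, heart and the embryo remainder of Δ92 and 0.06 ± 0.17, 0.00 ± 0.25 and -0.03 ± 0.11 in those of Δ18. It rose in the embryo remainder of Δ17,18,92 (0.60 ± 0.11; adjusted p = 0.000962) and of Δ17,18 (0.45 ± 0.11; adjusted p = 0.0110), which lack miR-17 and miR-20a. The call in Δ17,18 was kept in 3 of 6 fits that left out 1 library. The other genotypes without these microRNAs were not called there, with 0.33 ± 0.11 in Δ17 (adjusted p = 0.150) and 0.31 ± 0.11 in the full knockout (adjusted p = 0.0832). In the embryo remainder of Δ17,18,92, 8 heart muscle markers summed to 382 to 564 CPM, against 224 to 296 CPM in wild type, and 7 endothelial markers to 450 to 488 CPM, against 400 to 417 CPM in wild type, without overlap. Wild-type Cdkn1a was 18.1 ± 2.29 CPM in heart and 9.16 ± 0.497 CPM in the embryo remainder (SD, n = 3 each). In the same comparison 5 neural crest markers summed to 165 to 169 CPM in Δ17,18,92, against 143 to 153 CPM in wild type, also without overlap. The 7 markers of primitive red cells summed to 2012 to 2046 CPM in Δ17,18,92, against 2424 to 3620 CPM in wild type, also without overlap. In the embryo remainder of Δ17,18, the heart muscle markers, at 269 to 368 CPM, overlapped wild type, while 3 other sets did not. Yolk sac markers (7) summed to 42.0 to 48.0 CPM in Δ17,18, against 54.9 to 502 CPM in wild type. The neural crest markers summed to 156 to 164 CPM in Δ17,18, against 143 to 153 CPM in wild type. The third set, 10 immediate early and heat shock genes, which respond to handling, summed to 173 to 179 CPM in Δ17,18, against 161 to 171 CPM in wild type. Of the genes in these sets and of the 7 endothelial markers, edgeR called Hspa1b higher (1.10; adjusted p = 0.0278) and Tek lower (-0.26; adjusted p = 0.0257) in Δ17,18. The part of these in the values of Cdkn1a was not tested.

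Counts of other p53 targets that rose and fell were 0 and 2 of 33 for tail bud, 2 and 0 of 34 for heart and 1 and 2 of 33 for the embryo remainder of the full knockout, where 10.4%, 3.91% and 6.66% of all genes were called. In Δ17,18 they were 4 and 2, 2 and 0, and 3 and 1 of as many genes tested, against 8.31%, 1.12% and 4.44% of all genes. In Δ17,18,92 they were 2 and 2, 1 and 0, and 1 and 1, against 5.57%, 1.89% and 5.62% of all genes. Δ17 had 1 and 0 in tail bud and in heart and 0 and 0 in the embryo remainder, against 1.77%, 0.555% and 1.56% of all genes. Δ19 had 0 and 1, 0 and 0, and 0 and 2, against 1.03%, 0.406% and 1.88% of all genes. Without wild-type tail bud replicate 3, the tail bud counts were 0 and 1 in the full knockout, 0 and 0 in Δ17, 0 and 1 in Δ19, 2 and 0 in Δ17,18 and 2 and 0 in Δ17,18,92. Slc19a2, a thiamine transporter, rose in all 3 tissues of Δ17,18 (0.45 ± 0.08, 0.35 ± 0.08 and 0.44 ± 0.09) and fell in the embryo remainder of Δ19 (-0.39 ± 0.09; adjusted p = 0.0233). Its heart call in Δ17,18 was kept in 0 and its call in Δ19 in 2 of 6 fits that left out 1 library. Slc19a2 was also called higher in tail bud and heart of Δ17 (0.32 ± 0.08 and 0.40 ± 0.08) and of Δ17,18,92 (0.35 ± 0.08 and 0.59 ± 0.08). It was called higher in heart of the full knockout as well (0.43 ± 0.08). The Δ17 tail bud call was lost without wild-type tail bud replicate 3. Tnfrsf10b, a death receptor, rose in all 3 tissues of Δ17,18 (0.69 ± 0.12, 0.65 ± 0.11 and 0.71 ± 0.11) and was lower in heart of Δ17,18,92 than of Δ17,18 (-0.49 ± 0.10; adjusted p = 0.0163, kept in 2 of 6 such fits). Btg2, an antiproliferative gene, rose in tail bud of Δ17,18,92 (0.53 ± 0.09; adjusted p = 0.000998) and fell in tail bud of Δ19 (-0.57 ± 0.09; adjusted p = 0.00204). Ei24, another of these targets, fell in tail bud and the embryo remainder of the full knockout (-0.27 ± 0.06 and -0.20 ± 0.04). It fell in the same tissues of Δ17,18 (-0.21 ± 0.06 and -0.15 ± 0.04). In the embryo remainder it also fell in Δ17,18,92 (-0.16 ± 0.05) and Δ19 (-0.20 ± 0.04; edgeR, adjusted p = 0.00517). The Δ17,18 tail bud call of Ei24 was lost without wild-type tail bud replicate 3.

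Among 19 regulators of p53, Atm, the kinase that signals DNA double-strand breaks, rose in every tissue of the full knockout, Δ17, Δ17,18 and Δ17,18,92, by 0.31 ± 0.04 to 0.78 ± 0.06. Chek2, a kinase downstream of Atm, rose in tail bud and the embryo remainder of the same 4 genotypes, by 0.31 ± 0.06 to 0.51 ± 0.05. In tail bud, 2 regulators rose and 1 fell in the full knockout, where 10.4% of all genes were called. The counts were 2 and 0 in Δ17 (1.77% of all genes), 3 and 1 in Δ17,18 (8.31%) and 2 and 0 in Δ17,18,92 (5.57%). Shares of all genes called in heart of these 4 genotypes were 3.91%, 0.555%, 1.12% and 1.89%. In the embryo remainder they were 6.66%, 1.56%, 4.44% and 5.62%. Trp53 itself fell in tail bud of Δ17,18 (-0.15 ± 0.04; adjusted p = 0.0210, kept in 3 of 6 fits that left out 1 library and lost without wild-type tail bud replicate 3). Rchy1 fell in tail bud of the full knockout (-0.24 ± 0.08) and Trp53bp1 rose in that of Δ17,18 (0.18 ± 0.06). Without wild-type tail bud replicate 3 both calls were lost, and 2 regulators rose and 0 fell in tail bud of each of the 4 genotypes. Usp7 fell in the embryo remainder of Δ17,18 (-0.12 ± 0.03). In Δ92 the regulators had medians of -0.01, -0.03 and -0.05 in tail bud, heart and the embryo remainder. A list of 16 genes held targets of ATF4, the transcription factor of amino acid stress, and Atf4 itself. Of these, 1 rose and 5 fell in tail bud of Δ17,18 and of Δ17,18,92, where 8.31% and 5.57% of all genes were called. Atf4 was among the 5 that fell in Δ17,18,92. Without wild-type tail bud replicate 3, 0 rose and 3 fell in Δ17,18 and 1 rose and 2 fell in Δ17,18,92. In Δ92 the medians of the genes on this list were -0.01, -0.02 and 0.00.

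Over all 71 libraries, with the mean of each tissue removed from log2 CPM, Ccng1 and Eda2r varied most alike (Pearson r = 0.74), followed by Eda2r and Phlda3 (0.69) and Ccng1 and Phlda3 (0.66). The correlation of each gene with the mean of the other 9 was 0.80 for Eda2r, 0.71 for Ccng1, 0.69 for Phlda3 and 0.57 for Trp53inp1, and it was 0.26 for Mdm2, 0.25 for Aen, 0.17 for Perp and -0.04 for Zmat3. These libraries share genotypes, replicate numbers and the low Δ92 values by which the genes were chosen, so the correlations are a description. Among 10256 other genes above a floor of 3 for mean log2 CPM, those most like the mean of the members were Slc19a2 (0.66), Cdkn1a (0.65), Pafah1b2 (0.63), Clic4 (0.62) and Cept1 (0.61). Variation over libraries within a tissue was widest for Eda2r, whose SD was 18.6% of its mean for tail bud, 26.5% for heart and 24.5% for the embryo remainder, and narrowest for Mdm2 in tail bud and the embryo remainder, at 3.66% and 3.88%.

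**Figure D5:**
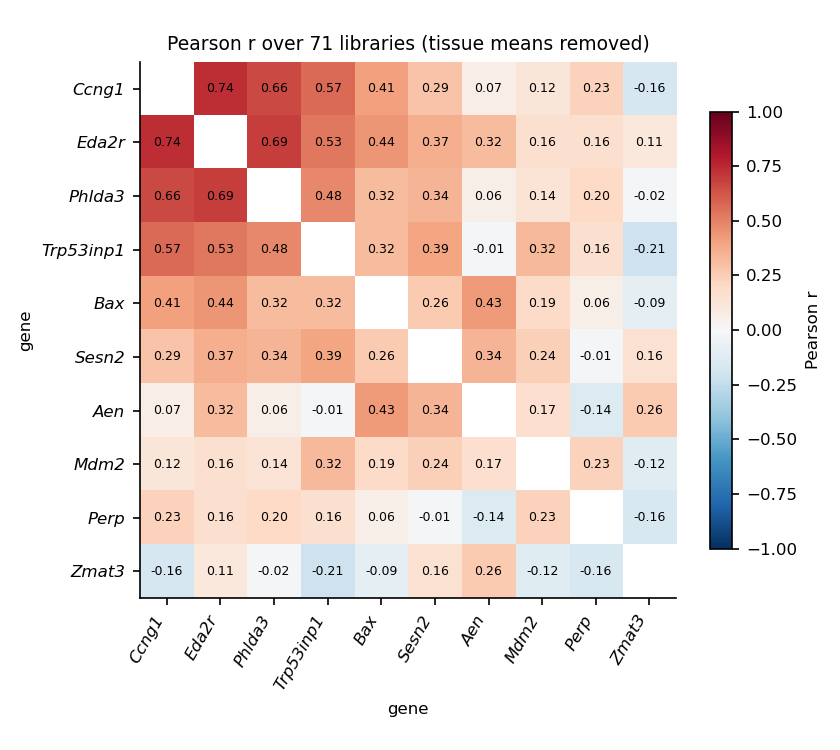
Pearson correlations between the 10 genes over 71 libraries, on log2 CPM with tissue means removed, from blue (-1) to red (1). Ccng1, Eda2r and Phlda3 form the darkest block, at 0.66 to 0.74, and Zmat3 has values between -0.21 and 0.26.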

How the data were processed

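Gene counts were deposited by the authors as whole-number counts for 71 libraries; per the labels, libraries were TruSeq libraries of TRIZOL-extracted RNA read as single reads of 50 bases, and the submitters' processing notes name STAR 2.3.0, SAMtools 0.1.14, featureCounts of Subread 1.4.2 and the mm9 build, with roles and settings not given in the sources used here. Counts were scaled to CPM with TMM factors over all libraries. edgeR 4.0.16 (R 4.3.3; quasi-likelihood, robust, low-count filter by genotype) was fitted to all genotypes of a tissue, with Benjamini-Hochberg adjustment over all genes tested (17009 in tail bud, 16750 in heart, 17512 in the embryo remainder). One fit of the wild-type tissues and one of full knockout by tissue were added. The procedure was tested on simulated data. The members and gene lists were chosen with earlier results of these data known. At most 4 genes of a list were named per comparison, and these were not always the genes of smallest p. Embryo sex as a term was chosen after the data were seen. Same-numbered wild-type libraries deviated together across tissues (r of 0.123 to 0.708), so numbers pair those tissues. The tests between wild-type tissues did not use this pairing, and the replicate block was run as an alternative. Over all genotypes, numbers paired in 19 of 24 comparisons of 2 tissues, among them all those of Δ92 and of Δ18. Like values in several tissues of a genotype are therefore not independent replication. Between genotypes numbers paired in 1 of 27 comparisons, that of Δ92 with wild type in the embryo remainder (r of 0.141 to 0.274). Libraries of 1 group were further apart than counting error allows (chi-square per degree of freedom of at least 2.66). Alternatives were DESeq2 1.42.0, RLE scaling, no filter, only the groups compared, the replicate block and leaving out each library.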

Additional observations from a re-analysis of the deposited data

Results flagged for a closer look

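Some members had all libraries moved one way in one tissue and the opposite way in another; these differences between tissues were not tested. Eda2r in Δ17,18,92 over wild type had a log2 fold change of 0.31 in heart and -0.16 in the embryo remainder. In Δ17,18,92 over Δ17,18, Mdm2 had -0.053 in tail bud and 0.11 in heart, and Bax had -0.055 for tail bud, 0.080 for heart and -0.18 for the embryo remainder. None of these values passed an adjusted p of 0.05 in edgeR. The embryo remainder of Δ17,18,92 had 2 libraries, so groups part there more easily. The share of all genes without overlap is not given for these comparisons, so nothing is read from the lack of overlap.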

How the results depend on the processing

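Among the members, the other p53 targets, the p53 regulators and the ATF4 targets, no gene that passed a test changed direction under the alternatives run. The other genes called, Pecam1, Apob, Hspa1b and Tek, were not followed through these alternatives. Of the 60 values of a member in Δ92 or Δ18 over wild type, which have no test, 23 changed sign in 1 or more alternatives. Each of those 23 lay within 0.142 of 0 on the log2 scale, and most such changes came from leaving out 1 library: Bax in Δ18 tail bud was -0.14, and 0.010 without wild-type replicate 3, and Eda2r in Δ18 heart was -0.03, and 0.23 without Δ18 replicate 2. The median in Δ18 heart also changed sign. Without the filter on low counts, edgeR called 1 member in heart of the full knockout, Δ17, Δ19 and Δ17,18, 2 in heart of Δ17,18,92, 1 in the embryo remainder of Δ17 and of Δ17,18,92, and 2 in that of Δ17,18, each over wild type. The genes tested were then 30244 in heart and 29228 in the embryo remainder, and more of them were called: in heart they were 1003 in the full knockout, 298 in Δ17, 630 in Δ19, 749 in Δ17,18 and 776 in Δ17,18,92 without the filter, against 655, 93, 68, 187 and 316 with it, and in the embryo remainder 457 in Δ17, 1212 in Δ17,18 and 1414 in Δ17,18,92 without it, against 274, 778 and 984 with it. With only both groups fitted, it called 1 in heart of Δ19, 0 in heart of Δ17,18,92 and 1 in the embryo remainder of Δ17,18 and of Δ17,18,92. DESeq2 called 1 in tail bud of Δ17,18, and embryo sex as a term left 0 in the embryo remainder of Δ19. Leaving out 1 library gave 0 to 1 member called in tail bud of Δ19, Δ17,18 and Δ17,18,92 (1 in each without wild-type replicate 2, and in Δ17,18 also without its replicate 1), in heart of Δ17,18,92 and in the embryo remainder of Δ19. Over the same fits the median log2 fold change of the members in heart ran from -0.083 to 0.0018 in Δ18 (lowest without Δ18 replicate 1) and from -0.175 to -0.062 in Δ92 (lowest without Δ92 replicate 2). With replicate numbers as a block, the member medians in Δ92 were -0.16 for tail bud, -0.09 for heart and -0.10 for the embryo remainder, and no count of members called between genotypes changed. The cause of these shifts was not tested. The members with the lowest levels were Eda2r and Phlda3 in tail bud and the embryo remainder and Eda2r and Sesn2 in heart. The part of depth in the spread of these members was not tested.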
